A study of Sus scrofa with 8 samples.

Results

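The nuclear genes of respiratory complexes II to V are described here in heart tissue of wild-type miniature pigs given doxorubicin (n = 5) or vehicle (n = 3). Members were taken by symbol: every gene of the deposited table whose name starts with COX, UQCR, SDH, ATP5 or ATPAF, together with CYCS, BCS1L and SCO2, without COX1, COX2 and COX3 of mitochondrial DNA. That gave 41 genes of 31014, and all 41 had enough reads to be tested. The rule also asks for CYC1, SURF1 and SCO1, which matched 0 rows, and SDHAF2, SDHAF1 and SDHAF3 came in through the SDH prefix. The treated group differs from its controls in the labels by the drug alone. Doxorubicin is an anthracycline used against cancer, and the labels state neither dose, schedule, age nor sex.

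Complex II (succinate dehydrogenase) takes electrons from succinate and hands them to ubiquinone. Complex III (cytochrome bc1) passes them to cytochrome c, complex IV (cytochrome c oxidase) passes them to oxygen, and complex V (ATP synthase) uses the resulting proton gradient to make ATP. Heart muscle works continuously and depends on this chain for nearly all of its ATP. Complex II is built wholly from nuclear genes, while cytochrome b of complex III, the catalytic core of complex IV and part of the membrane motor of complex V come from mitochondrial DNA. Dedicated assembly factors insert the haem, copper and iron-sulfur groups.

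Library totals ran from 17442566 to 18267178 counts in the doxorubicin group and from 16105242 to 17195538 in the vehicle group, and p-values measure the spread between these samples, since the labels do not say that they came from separate animals. Doxorubicin 5 was the least like its group: its log expression correlated with theirs at 0.912 on average, where the remaining treated libraries had averages of 0.941 to 0.956. The 15 cardiomyocyte markers found under their symbols summed to 44185 to 77067 CPM (counts scaled by library size and trimmed-mean factors) in doxorubicin hearts and 76716 to 81843 CPM in vehicle hearts; 2 of them passed the test, both lower. The 10 fibroblast markers summed to 2819 to 44281 CPM after doxorubicin and 1467 to 1766 CPM in vehicle, with 5 higher and 1 lower. Macrophage markers summed to 241 to 714 CPM after doxorubicin and 140 to 189 CPM in vehicle, with 5 of 8 higher. Lymphocyte markers summed to 17.4 to 28.9 CPM after doxorubicin and 5.07 to 8.67 CPM in vehicle, with 4 of 5 tested higher, and adipocyte markers to 37.2 to 143 CPM after doxorubicin and 258 to 410.1 CPM in vehicle, with 2 of 3 tested lower. Of 8 smooth muscle and pericyte markers 3 were higher and 1 lower, and of 8 endothelial markers 1 was higher. The cardiomyocyte sums of the 2 groups overlapped, and 4 of the 15 markers had positive fold changes. Lower calls made up 13.3% of these markers, where all tested genes had 11.3%. For any marker that differed, a change in cell number and a change in RNA per cell cannot be told apart in such bulk tissue. The part of these cell type markers in the values below was not tested.

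Of the 41 members 9 fell after doxorubicin, 0 rose and 32 did not pass the threshold, an adjusted p under 0.05 in edgeR's quasi-likelihood test over all 14938 tested genes. Lower calls thus made up 21.95% of the members, where 11.3% of all tested genes were called lower, 13.6% higher and 24.9% in either direction. The 9 were the complex II subunits SDHB and SDHC, cytochrome c (CYCS), the complex III assembly factor BCS1L, the complex IV subunit COX6C and assembly factor COX10, the ATP synthase subunits ATP5O and ATP5H, and ATP5S. Log2 fold changes of the members ran from −1.38 to 0.76 with a median of −0.43, beside a median of 0.02 over all tested genes, and 31 of 41 were negative. Every doxorubicin library lay below every vehicle library for 16 members (39.0%), against 17.8% of all tested genes. No member had every doxorubicin library above, a pattern shown by 17.1% of all tested genes. Members were abundant genes, with a median of 267 CPM where all tested genes had 15.3 CPM, so their precision is not that of the average gene.

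**Figure D1:**
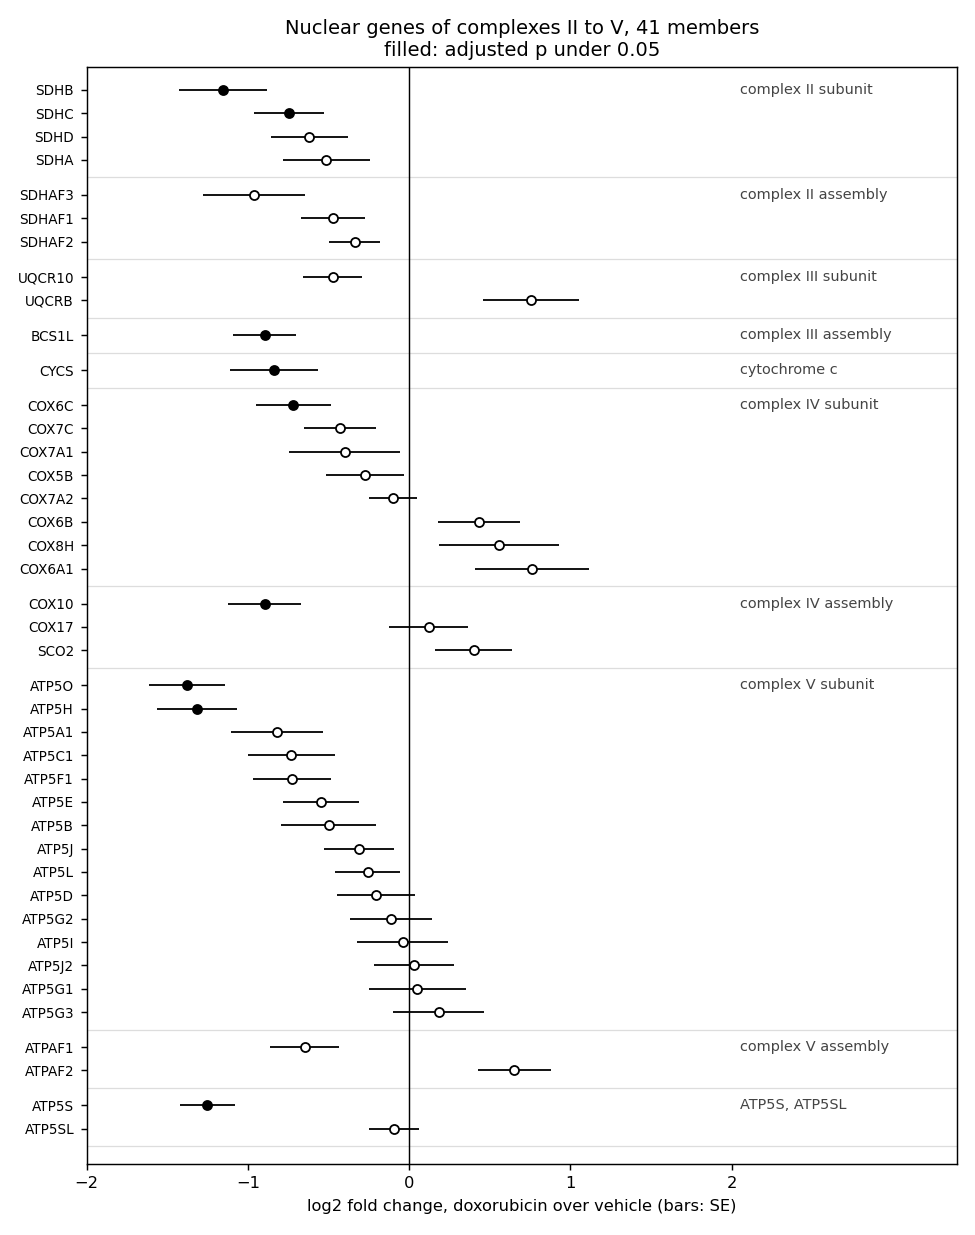
Log2 fold change of doxorubicin over vehicle for the 41 members, grouped by role, with bars for the SE and filled points for an adjusted p under 0.05. The 9 filled points all lie left of 0, from −1.38 (ATP5O) to −0.72 (COX6C), while 10 members lie right of 0 without passing.

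The size of the shift depends on how libraries are scaled. With library size only, the median of all tested genes moved to 0.38 and that of the members to −0.08. The members' median minus that of all genes was −0.45 as reported and −0.46 with library size only, and 22 of 41 fold changes were negative in the fit with library size only. In that fit 5 members were lower (ATP5O, ATP5H, ATP5S, SDHB and BCS1L) and 5 were higher (ATPAF2, COX6A1, COX6B, SCO2 and UQCRB). Of all 14938 tested genes 499 (3.34%) were lower and 4093 were higher in the same fit. As a share of all counts, without any scaling between libraries, the members together took 1.04% to 1.83% after doxorubicin and 1.53% to 1.93% in vehicle, and these ranges overlap. Genes of mitochondrial DNA took 8.70% to 16.6% of counts after doxorubicin and 23.6% to 27.5% in vehicle.

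The number of calls also depended on single libraries. Without vehicle 1, vehicle 2 or vehicle 3 there were 3, 3 and 2 lower members, where 2.04%, 5.57% and 2.42% of all tested genes were lower. Without doxorubicin 5 there were 14 lower members, where 15.4% of all tested genes were lower. The calls over all genes thus moved with those of the members. ATP5O and ATP5S passed whichever library was left out. ATP5H failed only without vehicle 3 (edgeR adjusted p = 0.0545). The other 6 lost their call whichever vehicle library was left out. Fold changes over all genes also followed the number of protein-coding genes within 500 kb (the gene density trend). With that trend removed, 10 members were lower, where 8.82% of all tested genes were. Of the 9 calls 6 were kept, and COX10, COX6C and CYCS were lost (edgeR adjusted p = 0.0610, 0.154 and 0.132). ATP5F1, ATPAF1, SDHAF1 and SDHAF2 were called lower in that fit only by gaining a call.

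All 4 subunits of complex II had every doxorubicin library below every vehicle library, as 17.8% of all tested genes did, and 2 of them passed. SDHB carries the iron-sulfur clusters that lead electrons from the catalytic subunit to the membrane. It was at 328, 233, 151, 310 and 176 CPM in doxorubicin 1 to 5, against 465, 606 and 529 CPM in vehicle 1 to 3. The level was 0.449 times that of vehicle (log2 fold change −1.15, SE 0.27, edgeR adjusted p = 0.0172). SDHC, a membrane anchor that holds haem b, was at 260, 244, 169, 313 and 198 CPM after doxorubicin and at 370, 431 and 390 CPM in vehicle. It fell by 0.75 on the log2 scale (SE 0.22, edgeR adjusted p = 0.0335). SDHB and SDHC both lost their call whichever vehicle library was left out, and SDHC also with library size only (edgeR adjusted p = 0.150). Vehicle libraries were all above the highest doxorubicin library in both genes, and doxorubicin 3 was the lowest of the 8 for each.

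SDHD, the other membrane anchor, averaged 222 ± 60.9 CPM in doxorubicin hearts and 342 ± 34.4 CPM in vehicle hearts (SD, n = 5 and n = 3). SDHA, the flavoprotein that oxidises succinate, averaged 752 ± 224 CPM after doxorubicin and 1074 ± 88.4 CPM in vehicle. Neither passed (edgeR adjusted p = 0.0836 for SDHD and 0.177 for SDHA), though neither gene's groups overlapped. Within a library, where scaling plays no part, the ratio of SDHB to SDHA counts was 0.269 to 0.358 in the doxorubicin group and 0.475 to 0.526 in the vehicle group. These intervals do not overlap, and the ratio was not tested. Among the assembly factors, SDHAF3, which helps SDHB take up its iron-sulfur clusters, had a log2 fold change of −0.96 (SE 0.32, edgeR adjusted p = 0.0509) at only 29 to 87 reads a library. SDHAF1, with a like role, had −0.47, and SDHAF2, which puts the flavin onto SDHA, had −0.34, and neither passed.

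Only UQCR10 and UQCRB represent complex III under their own symbols. UQCR10, a small membrane subunit, averaged 176 ± 23.8 CPM after doxorubicin and 244 ± 41.9 CPM in vehicle. UQCRB, which sits at the ubiquinone pocket, was at 273, 200, 118, 204 and 187 CPM in doxorubicin 1 to 5 and at 102, 163 and 84.2 CPM in vehicle 1 to 3. Their log2 fold changes had opposite signs, −0.47 (SE 0.18) for UQCR10 and 0.76 (SE 0.30) for UQCRB, and neither passed (edgeR adjusted p = 0.0837 for UQCR10 and 0.0863 for UQCRB). With library size only UQCRB was called higher (1.11, edgeR adjusted p = 0.0160).

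BCS1L, the ATPase that inserts the Rieske iron-sulfur protein as the last catalytic piece of complex III, fell. It was at 24.6, 17.8, 15.6, 21.3 and 13.9 CPM in doxorubicin 1 to 5, against 31.5, 38.0 and 34.7 CPM in vehicle 1 to 3. The log2 fold change was −0.90 (SE 0.20, edgeR adjusted p = 0.0139), and the groups did not overlap. CYCS encodes cytochrome c, the soluble carrier between complexes III and IV. It was at 580, 500, 274, 654 and 390 CPM after doxorubicin and at 819, 907 and 847 CPM in vehicle, again without overlap. Its log2 fold change of −0.84 (SE 0.27) only just passed (edgeR adjusted p = 0.0487), and the next member in order of p, ATPAF1, only just missed (edgeR adjusted p = 0.0507).

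**Figure D2:**
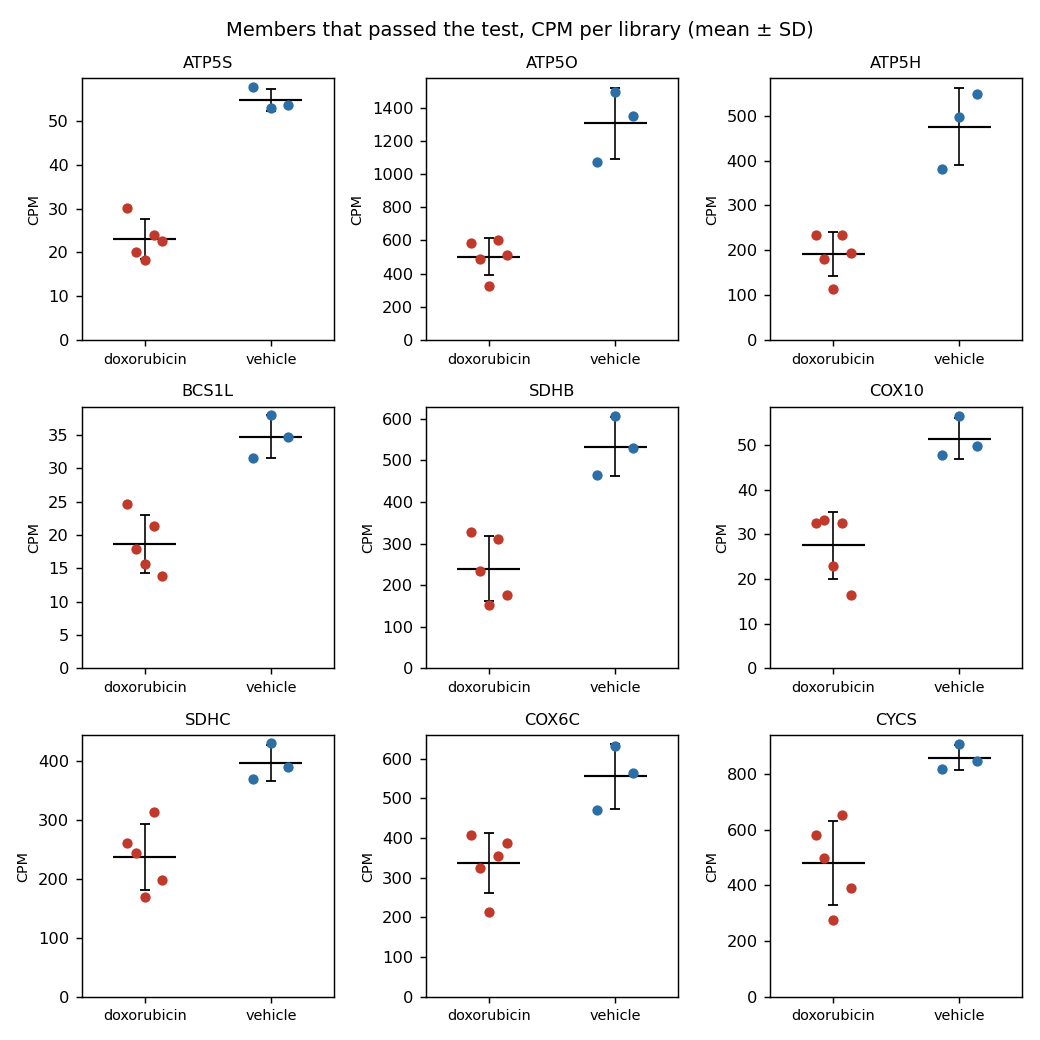
CPM in each library for the 9 members that passed, doxorubicin (n = 5) left and vehicle (n = 3) right in each panel, with the mean and SD. The 2 groups of points do not overlap in any of the 9 panels, whose genes were picked by the test on these same values. Of all tested genes 17.8% had every doxorubicin library below every vehicle library.

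Of the 8 complex IV subunits 1 fell, near the 11.3% of all tested genes that were called lower. This was COX6C, a small transmembrane subunit. It was at 408, 324, 213, 354 and 388 CPM in doxorubicin 1 to 5, against 470, 633 and 564 CPM in vehicle 1 to 3. It fell by 0.72 on the log2 scale (SE 0.23, edgeR adjusted p = 0.0477). The call was lost with library size only (edgeR adjusted p = 0.209) and with the gene density trend removed (edgeR adjusted p = 0.154). It was also lost with RLE factors, without a filter and with the replicate number as a block. The other 7 ranged from −0.43 for COX7C, a neighbouring membrane subunit, to 0.76 for COX6A1, the isoform of subunit VIa found in most tissues. COX5B, a subunit on the matrix side, averaged 457 ± 104 CPM after doxorubicin and 554 ± 102 CPM in vehicle. COX6B, on the intermembrane side, averaged 306 ± 58.1 CPM after doxorubicin and 227 ± 74.4 CPM in vehicle. The 2 groups overlapped for each of these 7 genes, and the sign for COX5B and COX7A2 turned positive with library size only, while that for COX6B turned negative once the gene density trend was removed.

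COX10 makes haem O, the step before the haem A that complex IV alone uses. It was at 32.6, 33.3, 23.0, 32.6 and 16.5 CPM in doxorubicin 1 to 5, against 47.8, 56.6 and 49.8 CPM in vehicle 1 to 3. It fell by 0.90 on the log2 scale (SE 0.23, edgeR adjusted p = 0.0221), with no overlap. Of the copper factors, COX17, which hands copper to the assembly proteins, had a log2 fold change of 0.12 (SE 0.25), and SCO2, which loads copper into COX2, had 0.40 (SE 0.24). Those listed by description, COX11 (LOC100739396) and SCO1 (LOC100517855), had −0.74 (SE 0.27) and −0.12 (SE 0.14). None of these 4 passed.

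Much of complexes III and IV stands in the table under LOC identifiers, with the protein given in the table's own description. These genes lie outside the symbol rule and were added for completeness after the table had been read, so they carry the same test but no independent weight. Of 24 such genes 20 were tested, and 4 fell, 2 rose and 14 did not pass, so that 30.0% were called in either direction, near the 24.9% of all tested genes. Each of the 6 calls held in only 3 to 6 of the 8 fits that leave out a library. LOC100522678, described as the Rieske subunit that BCS1L inserts, was at 689, 665, 376, 820 and 503 CPM in doxorubicin 1 to 5, against 1089, 1185 and 1114 CPM in vehicle 1 to 3. It fell by 0.89 on the log2 scale (SE 0.26, edgeR adjusted p = 0.0332). LOC100156375, described as COX15, which turns haem O into haem A, averaged 35.7 ± 9.54 CPM after doxorubicin and 60.5 ± 8.10 CPM in vehicle (log2 fold change −0.76, SE 0.23, edgeR adjusted p = 0.0402). The groups did not overlap for either gene. BCS1L and the Rieske subunit were thus both lower, as were COX10 and COX15. With library size only, BCS1L still passed (edgeR adjusted p = 0.0467) but LOC100522678, COX10 and LOC100156375 did not (edgeR adjusted p = 0.105, 0.0824 and 0.189). The same 3 genes also lost their call without the gene density trend (edgeR adjusted p = 0.0966, 0.0610 and 0.0542), where BCS1L kept it (edgeR adjusted p = 0.00953).

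Subunit 7B of complex IV (LOC100516480) averaged 244 ± 50.7 CPM after doxorubicin and 453 ± 44.4 CPM in vehicle and fell by 0.89 on the log2 scale (SE 0.21, edgeR adjusted p = 0.0164). Subunit 6A2, the isoform of heart and skeletal muscle (LOC100626250), was at 390, 320, 180, 313 and 226 CPM in doxorubicin 1 to 5, against 414, 655 and 612 CPM in vehicle 1 to 3. It fell by 0.97 on the log2 scale (SE 0.27, edgeR adjusted p = 0.0304). Subunit 6A2 lost its call with library size only (edgeR adjusted p = 0.0847) and kept it without the gene density trend (edgeR adjusted p = 0.0145). Higher calls went to subunit 8A of complex IV (LOC100522725, 109 ± 10.3 CPM after doxorubicin and 72.6 ± 11.6 CPM in vehicle, edgeR adjusted p = 0.0260) and to subunit 6 of complex III (LOC100524873, 271 ± 52.7 CPM after doxorubicin and 149 ± 39.8 CPM in vehicle, edgeR adjusted p = 0.0293). Neither higher call held without the gene density trend (edgeR adjusted p = 0.142 and 0.0527). That of subunit 6 of complex III held with library size only (edgeR adjusted p = 0.00526). The core subunits of complex III, LOC100156879 and LOC100524613, had log2 fold changes of −0.55 and −0.88, and subunit 4 isoform 1 of complex IV, LOC100624067, had −0.43. None of these 3 passed. The ratio of the Rieske subunit to UQCRB was 2.52 to 4.03 in doxorubicin libraries and 7.28 to 13.2 in vehicle libraries, without overlap. It was not tested. The log2 fold changes of these 2 genes had opposite signs (−0.89 and 0.76). The gap in their ratio follows from those values and is no separate result.

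**Figure D3:**
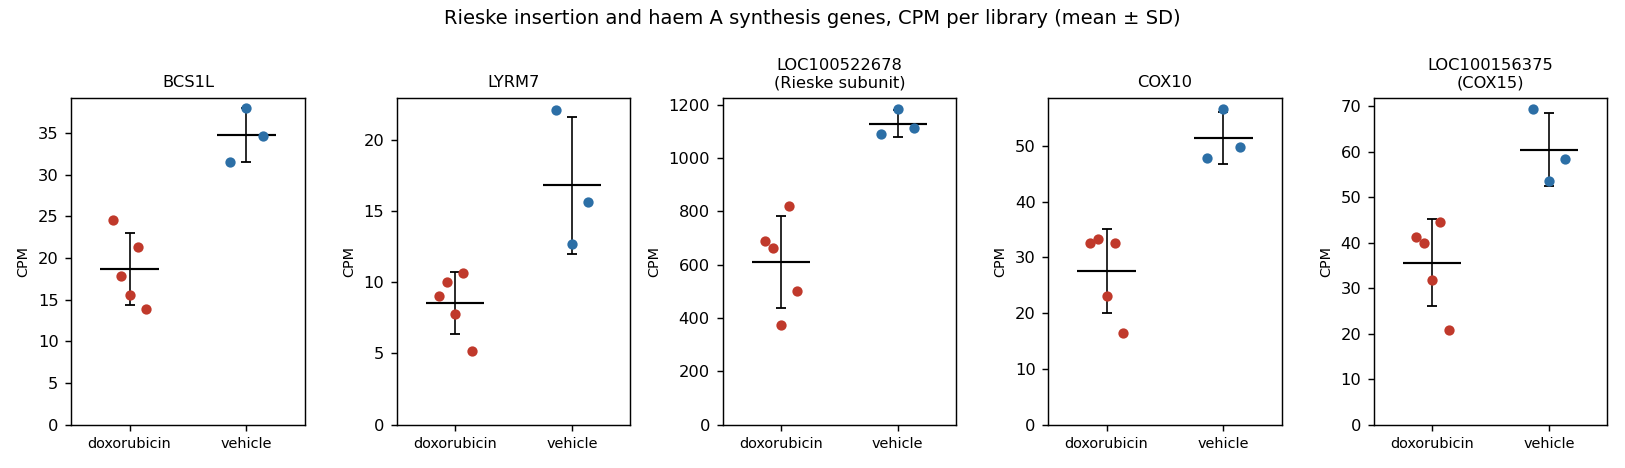
CPM per library of BCS1L, LYRM7 and the Rieske subunit (complex III) and of COX10 and COX15 (haem A synthesis), doxorubicin left and vehicle right, with the mean and SD. All 5 doxorubicin libraries lie below all 3 vehicle libraries in each panel, as for 17.8% of all tested genes. Every gene shown was one called lower. TTC19, a listed complex III assembly gene not shown, had a log2 fold change of 0.23, overlapped and did not pass.

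Of the 15 subunits of ATP synthase 2 fell (13.3%), near the 11.3% of all tested genes that were called lower. Both belong to 1 part of the enzyme, and whether calls gather in a part was not tested. In the peripheral stalk, which holds the F1 head still against the turning rotor, ATP5O and ATP5H fell. ATP5O, the OSCP subunit that joins stalk and head, was at 583, 485, 326, 604 and 512 CPM in doxorubicin 1 to 5, against 1075, 1492 and 1348 CPM in vehicle 1 to 3. This was 0.384 times the vehicle level (log2 fold change −1.38, SE 0.24, edgeR adjusted p = 0.00776), and the most negative of all 41 members. ATP5H, subunit d of the stalk, was at 234, 182, 114, 233 and 194 CPM after doxorubicin and at 381, 497 and 548 CPM in vehicle. Its log2 fold change was −1.31 (SE 0.25, edgeR adjusted p = 0.00945). The highest doxorubicin library lay well under the lowest vehicle library in both genes.

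ATP5F1, subunit b of the same stalk, averaged 537 ± 144 CPM after doxorubicin and 889 ± 66.7 CPM in vehicle, with no overlap, and just missed the threshold (edgeR adjusted p = 0.0531). ATP5J, coupling factor 6, averaged 255 ± 50.2 CPM after doxorubicin and 317 ± 54.8 CPM in vehicle, and its groups overlapped. The 5 genes of the catalytic F1 head all had negative fold changes, from −0.82 for ATP5A1 (alpha) to −0.21 for ATP5D (delta), and 0 of 5 passed. ATP5A1 was at 2182, 2321, 1186, 2791 and 1577 CPM in doxorubicin 1 to 5, against 3218, 3864 and 3561 CPM in vehicle 1 to 3. ATP5B, the catalytic beta subunit, was at 3023, 2840, 1520, 3451 and 1844 CPM after doxorubicin and at 3304, 3898 and 3549 CPM in vehicle. Alpha was below vehicle in every doxorubicin library, whereas doxorubicin 4 reached the vehicle range for beta.

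The c ring, the rotor in the membrane, is encoded by 3 genes that yield the same mature protein. ATP5G1 averaged 475 ± 147 CPM in doxorubicin hearts and 458 ± 103 CPM in vehicle hearts, ATP5G2 averaged 209 ± 44.9 CPM in doxorubicin hearts and 226 ± 74.5 CPM in vehicle hearts, and ATP5G3 averaged 578 ± 164 CPM in doxorubicin hearts and 509 ± 101 CPM in vehicle hearts. Their log2 fold changes were 0.05 (SE 0.30), −0.11 (SE 0.25) and 0.18 (SE 0.28), none passed, and those of ATP5G1 and ATP5G2 changed sign between settings. Reads of such similar genes may be split between them, which leaves each single value uncertain. The small membrane subunits e (ATP5I), f (ATP5J2) and g (ATP5L) had −0.04, 0.03 and −0.26, and none of them passed.

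Summed over its 4 genes, the peripheral stalk was at 1794, 1469, 984, 1770 and 1408 CPM in doxorubicin 1 to 5 and at 2557, 3317 and 3088 CPM in vehicle 1 to 3. Over the 3 genes of the c ring the sums were 1488, 1398, 695, 1566 and 1159 CPM after doxorubicin and 1008, 1510 and 1061 CPM in vehicle, so the ring's groups overlapped where those of the stalk did not. Stalk messages stood to ring messages as 1.21, 1.05, 1.42, 1.13 and 1.21 in the 5 doxorubicin libraries and as 2.54, 2.20 and 2.91 in the 3 vehicle libraries, a ratio that no scaling of libraries can change. The ratio of F1 head to c ring was 3.84 to 4.88 after doxorubicin and 6.30 to 8.17 in vehicle. All of these are descriptions of chosen sums and were not tested.

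**Figure D4:**
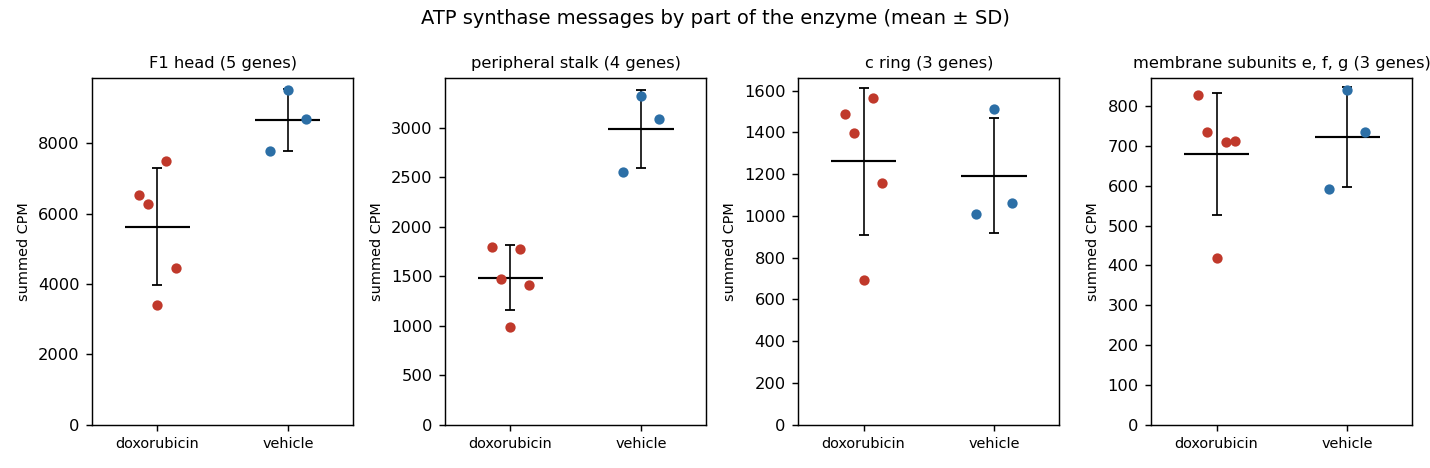
Summed CPM of ATP synthase messages per library by part of the enzyme, doxorubicin left and vehicle right, with the mean and SD. The peripheral stalk sums lie between 984 and 1794 CPM after doxorubicin and between 2557 and 3317 CPM in vehicle, while the c ring and the subunits e, f and g overlap.

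ATPAF1 and ATPAF2 bring beta and alpha subunits together when the F1 head is built. ATPAF1 averaged 116 ± 28.5 CPM after doxorubicin and 181 ± 7.38 CPM in vehicle, and ATPAF2 averaged 19.1 ± 3.52 CPM after doxorubicin and 12.2 ± 3.61 CPM in vehicle. The log2 fold changes were −0.65 (SE 0.21) and 0.65 (SE 0.23), and neither passed (edgeR adjusted p = 0.0507 and 0.0611). ATP5S, also called coupling factor B, had the smallest p of the 41. It was at 30.2, 20.2, 18.4, 23.9 and 22.5 CPM in doxorubicin 1 to 5, against 57.8, 53.1 and 53.8 CPM in vehicle 1 to 3. The log2 fold change was −1.25 (SE 0.17, edgeR adjusted p = 0.00525), the groups were far apart, and the vehicle libraries were close together. ATP5SL, which shares its name but is known from human cells as a complex I assembly factor, had −0.09 (SE 0.16).

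Among the libraries doxorubicin 3 was the lowest of the 5 treated ones for 32 of the 41 members, and doxorubicin 5 for 6. The median member's log2 difference from its vehicle mean was −0.92 in doxorubicin 3 and −0.33 to −0.20 in the other 4 treated libraries. Of the 41 members 36 lay under the vehicle minimum in doxorubicin 3 and 19 to 24 in the others. Neither these counts nor those of lowest libraries were made over all tested genes. Whether they are particular to the members is therefore not known. The cardiomyocyte marker sum of doxorubicin 3 was 50715 CPM, beside 44185 CPM in doxorubicin 5 and 69167 to 77067 CPM in doxorubicin 1, 2 and 4, and its fibroblast marker sum was 9401 CPM, beside 44281 CPM in doxorubicin 5. Without doxorubicin 3 the lower calls numbered 6, all from the 9, where 7.90% of all tested genes were lower, and UQCRB was called higher.

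Several members and LOC genes come as isoforms or close relatives. Of these, 8 pairs, called isoform pairs here, were compared as the log2 ratio of counts within each library. Not all are tissue isoforms: the c ring genes yield the same mature protein, and LOC100516606 is described as a subunit 7A-related protein. The clearest pair was COX6A1 over the muscle isoform 6A2 (LOC100626250). The log2 ratio was −3.15, −2.84, −1.81, −3.21 and −1.06 in doxorubicin 1 to 5, against −3.89, −4.30 and −3.98 in vehicle 1 to 3. The difference was 1.64 on the log2 scale, higher in 5 of 5 doxorubicin libraries, with an exact two-sided permutation p of 0.0357, the smallest this design allows, and 0.286 when adjusted over the 8 pairs. It therefore did not pass the correction. COX6A1 itself was at 43.9, 44.8, 51.2, 33.7 and 108 CPM after doxorubicin and at 27.8, 33.2 and 38.7 CPM in vehicle. Doxorubicin 5, the library with the highest fibroblast markers, also had the highest COX6A1, and without it the ratio differed by 1.31.

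For COX7A2 over the muscle isoform COX7A1 the log2 ratios averaged −1.35 ± 0.45 after doxorubicin and −1.69 ± 0.35 in vehicle (SD, n = 5 and n = 3; exact permutation p = 0.393, adjusted p = 0.524). For subunit 8A over COX8H, the heart isoform of subunit VIII, they averaged −0.37 ± 0.71 after doxorubicin and −0.49 ± 0.24 in vehicle (exact permutation p = 0.857, adjusted p = 0.857). Subunit 4 isoform 2 (LOC110257420) over isoform 1 had a mean difference of 1.05, with doxorubicin 5 at −4.04 and doxorubicin 2 and 4, at −6.85 and −6.64, inside a vehicle range of −7.01 to −6.46 (exact permutation p = 0.214, adjusted p = 0.429). The groups overlapped for 7 of the 8 pairs, and the remaining adjusted p ran from 0.429 to 0.857.

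**Figure D5:**
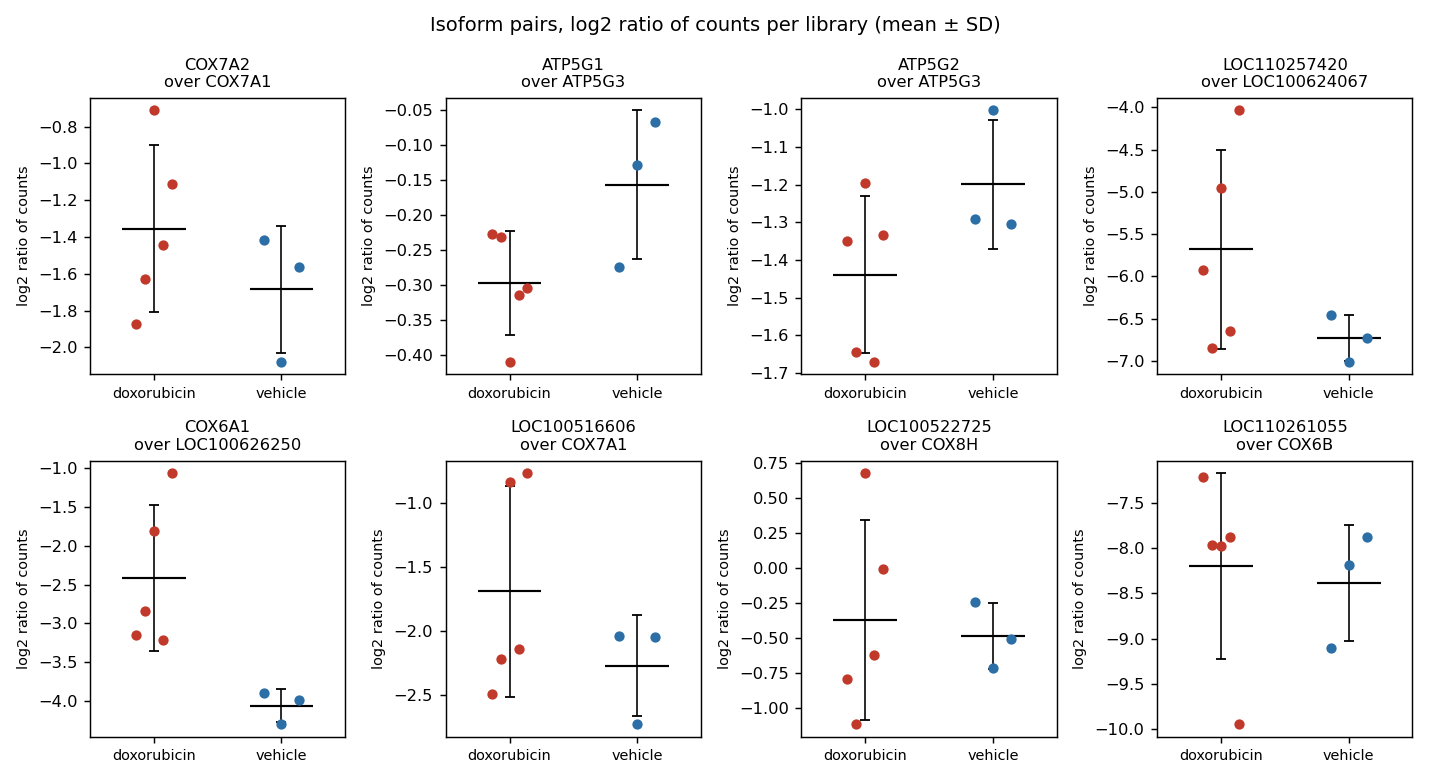
Log2 ratio of counts within each library for 8 isoform pairs, doxorubicin left and vehicle right, with the mean and SD. Only in COX6A1 over LOC100626250 (subunit 6A2) do all 5 doxorubicin libraries lie above all 3 vehicle libraries, and no pair passed the adjusted test.

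Per length, the most abundant members in vehicle hearts were ATP5B (1925 CPM per kb, SD 160.3), ATP5A1 (1923, SD 175) and ATP5O (1800.4, SD 292), which did not differ beyond their spread, followed by COX5B (1143, SD 209.7) and COX6C (1064, SD 157). After doxorubicin ATP5B (1362, SD 439) and ATP5A1 (1090, SD 343) led, and ATP5O stood at 692 (SD 152). Assembly factors were far rarer, from 5.93 CPM per kb in vehicle for SCO2 to 47.0 for ATPAF1, COX17 aside (188). Among the 41 members the log2 fold change had a Spearman correlation of −0.33 with gene length and 0.25 with gene density, where all 14938 genes had −0.089 and 0.29, a description over genes that share libraries. SDHB lies on chromosome 6 from 75648362 to 75678111, SDHC on chromosome 4 from 89135410 to 89169164, ATP5O on chromosome 13 from 197509331 to 197519530, and ATP5H on chromosome 12 from 6241467 to 6247344 (assembly Sscrofa11.1).

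Genes of the same complexes that the symbol rule leaves out were taken from a list of assembly factors, associated proteins and coenzyme Q enzymes. Of 36 tested, 12 fell, 1 rose and 23 did not pass, with a median log2 fold change of −0.48. Lower calls made up 33.3% of them, where all tested genes had 11.3% and a median of 0.02. LRPPRC, which stabilises mitochondrial messages, averaged 118 ± 24.0 CPM after doxorubicin and 237 ± 14.1 CPM in vehicle (log2 fold change −1.01, SE 0.19, edgeR adjusted p = 0.00945). COQ5, a methyltransferase of coenzyme Q synthesis, averaged 53.4 ± 9.75 CPM after doxorubicin and 102 ± 9.63 CPM in vehicle (−0.93, SE 0.18, edgeR adjusted p = 0.00971). LYRM7, the chaperone that holds the Rieske protein before BCS1L inserts it, fell by 0.98 (SE 0.26, edgeR adjusted p = 0.0262), FMC1, needed for ATP synthase assembly, by 0.82, and FASTKD2, a mitochondrial RNA-binding protein, by 0.57. HIGD2A, an assembly factor of complex IV, was the gene that rose, at 81.9 ± 12.6 CPM after doxorubicin and 43.7 ± 10.02 CPM in vehicle (0.91, SE 0.20, edgeR adjusted p = 0.0135). With library size only 2 of the 36 were lower (LRPPRC and COQ5) and 3 higher, where 499 of all 14938 tested genes were lower and 4093 higher. LYRM7, FMC1 and FASTKD2 also lost their call without the gene density trend (edgeR adjusted p = 0.0591, 0.0595 and 0.0881).

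Subunits of these complexes from mitochondrial DNA were lower for CYTB (complex III, −1.08, SE 0.29, edgeR adjusted p = 0.0254) and ATP6 (complex V, −1.18, SE 0.28, edgeR adjusted p = 0.0184) as well as for COX1 and COX2. With library size only CYTB lost its call (edgeR adjusted p = 0.0651). COX3 had −0.66 (SE 0.28) and ATP8, with few reads, had 1.37 (SE 0.90), and neither passed.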

How the data were processed

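Messenger RNA of miniature pig heart was sequenced in 8 libraries. Per the labels' protocols, total RNA from RNeasy columns went into a SMARTER mRNA-Seq kit. The authors deposited raw counts per gene, 1 column a library, matched to samples by the titles in the labels. The sources used here do not name the aligner, counting tool, strand use or annotation, so overlapping, antisense and near-identical genes are uncertain. Gene lengths come from the deposited table. Member IDs were matched to RefSeq (Sscrofa11.1), where all 41 had the same start and end.

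The analysis used edgeR 4.0.16 under R 4.3.3: filterByExpr (minimum count 10, minimum total 15), TMM factors and a robust two-sided quasi-likelihood F test of treatment, Benjamini-Hochberg adjusted over 14938 genes. Each SE is the log2 fold change divided by the root of F. The fit was tested on simulated data. Isoform ratios used counts plus 0.5 and exact permutation over 56 splits. Alternatives were DESeq2 1.42.0, limma 3.58.1, other scalings and filters, removal of gene length and gene density trends by lowess, the replicate number as a block, and each library left out. Depth was 16105242 to 18267178 counts a library, and precision rests on the spread between samples as well as on depth. Figures used matplotlib 3.10.9.

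Members and lists were chosen with earlier results of these data known. The text names every member past the threshold, the most abundant members, isoform partners, assembly factors and, of other genes, those with the smallest p. Genes under LOC identifiers and 5 of the 8 isoform pairs were matched through the table's descriptions after the table had been read.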

Additional observations from a re-analysis of the deposited data

Results flagged for a closer look

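Among the 5 doxorubicin libraries, 1 library stood apart from the rest by Dixon's test at the 95% level in 6 of the 86 groups of values examined, and chance alone marks about 1 in 20 groups. Doxorubicin 5 was highest for COX6A1 (108 CPM, next 51.2), LOC110257420 (54.1 CPM, next 18.7) and LOC100516606 (114 CPM, next 66.2). Doxorubicin 3 was lowest for COX6B (206 CPM, next 311) and ATP5J (168 CPM, next 258). The log2 ratio of LOC110261055 over COX6B was lowest in doxorubicin 5 (−9.95, next −7.98), where the numerator had few reads.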

How the results depend on the processing

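The 9 lower and 0 higher members became 5 and 5 with library size only, 16 and 2 with DESeq2, 21 and 5 with limma voom, and 15 and 0 with the gene length trend removed. All genes, 1681 lower and 2033 higher, became 499 and 4093 with library size only and 4021 and 4030 with limma voom. The listed other genes, 12 and 1, became 2 and 3 with library size only and 20 and 3 with limma voom. For the LOC genes, 4 and 2, there were 1 lower with library size only, 8 lower with limma voom, and 2 and 0 without the density trend. With any library left out, members ran from 2 to 14 lower and 0 to 1 higher, all genes from 315 to 2265 and 334 to 2472, other genes from 1 to 12 and 0 to 1, and LOC genes from 0 to 5 and 0 to 2. The replicate number as a block added COX6A1 as a higher member (edgeR adjusted p = 0.0486) and left 1 LOC gene higher. It kept 9 members lower, of which 8 were among the original 9. Deviations from group means correlated at −0.0031 to 0.043 in same-numbered libraries and at −0.12 to 0.13 in the other pairs. With so few libraries these correlations cannot show whether same-numbered samples share more than the number. No called gene changed sign, but genes that did not pass did: with library size only COX5B (0.069), ATP5D (0.14), ATP5J (0.037), ATP5L (0.090), ATP5G2 (0.24), ATP5I (0.31), COX7A2 (0.25), ATP5SL (0.26), SDHAF2 (0.016), LOC100525869 (0.042), LOC100517855 (0.23), LOC110256505 (0.079). Signs also changed with limma voom for ATP5G2 (0.13), ATP5I (0.16), LOC110257420 (−0.12), LOC100516606 (−0.11). Signs also changed with the replicate block for ATP5G1 (−0.10), ATP5J2 (−0.025). Signs also changed with the density trend removed for ATP5G1 (−0.15), COX6B (−0.064), ATP5J2 (−0.19), COX7A2 (0.14), LOC100522861 (−0.0021). Signs also changed with the length trend removed for ATP5J2 (−0.026). Ranges over left-out libraries that cross 0 were ATP5G1 (−0.080 to 0.24), ATP5G2 (−0.25 to 0.19), ATP5I (−0.20 to 0.24), ATP5J2 (−0.13 to 0.16), COX17 (−0.043 to 0.34), LOC100516606 (−0.031 to 0.31), the log2 ratio of LOC100522725 over COX8H (−0.15 to 0.30), the log2 ratio of LOC110261055 over COX6B (−0.17 to 0.63). With 5 counts added, the log2 ratio of LOC110261055 over COX6B differed by −0.087. RLE factors, the other filters and TMM without abundant genes left the counts of calls within 1.5 times; the cause of the shifts was not tested. Ratios of low counts, and fold changes within the SE of 0, cannot be given a direction at this depth and number of libraries.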
